A study of Homo sapiens with 3 samples.

Results

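The genes described here are 45 genes of blood coagulation and complement, taken by gene symbol from a list of clotting factors, their inhibitors, complement components and complement regulators, out of 16149 genes listed in at least 1 of 3 libraries. Of the 45, 34 were listed in at least 1 library, and the other 11 (F12, F11, F9, KLKB1, F13B, PROZ, SERPINC1, PLG, A2M, C8A and C8B) were listed in none and were taken as 0. The libraries were made from RNA of 3 cultured strains of HCCLM3, an established human hepatocellular carcinoma line, grown in DMEM, with 1 library per strain. According to the labels, the parent spreads poorly, subclone 1 spreads more and to the lung, and subclone 2 spreads to both the lung and the celiac lymph node. The study's methods describe its parental strain as HCCLM3-R, a derivative of HCCLM3 that carries a red fluorescent protein and is there called highly metastatic, and its subclones as single-cell clones from tumors that HCCLM3-R formed in nude mice. Each subclone is therefore 1 clone. The sources used here do not say which of the named clones were sequenced.

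The liver makes most of the plasma proteins of both cascades. In coagulation, tissue factor on a cell surface binds factor VII, serine proteases then activate each other in turn, and thrombin finally cuts fibrinogen into fibrin, while protein C, protein S, antithrombin and TFPI slow the chain and plasmin dissolves the clot. In complement, C1 or the lectin-bound MASP proteases cut C4 and C2, factor B drives the alternative loop, both routes cut C3 and then C5, and C5b to C9 form a pore, while CD46, CD55, CD59, C4b-binding protein and factor I protect the cell's own surface.

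RPKM values, which are read counts divided by transcript length and library total, were deposited, and whole reads were recovered from them for intervals. The parent had a recovered total of 4488825 reads, subclone 1 had 4609696 and subclone 2 had 4725150. Fold changes below are ratios of RPKM, and a gene was counted as at least 2-fold higher or lower from log2 of RPKM plus 0.1 where its mean RPKM over the 3 libraries was at least 1. Intervals are exact Poisson (levels) or Clopper-Pearson (folds) intervals at 95% and cover counting error only. With 1 library per strain there was no replicate check and no test between strains, so a strain and its library cannot be told apart. As these are bulk samples, fewer expressing cells and less RNA per cell cannot be told apart either.

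The summed mRNA of this group was higher in both subclones than in the parent. The RPKM of the 45 genes summed to 344 in the parent and to 547 and 517 in the subclones, in that order, and the genes together had 5685, 8628 and 8805 reads. The 5 highest genes were the same 5 in each library (CD46, TFPI, C1S, CD59 and C1R) and held 73.3%, 71.6% and 67.6% of the sum. Their order differed, with the complement regulator CD46 highest in the parent and the C1 protease C1S highest in both subclones. C1R and C1S had the largest increases of RPKM in both subclones. C1R went from 29.7 to 93.8 and 70.1, and C1S from 50.7 to 117 and 89.9.

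Of the 45 genes, 21 had a mean of at least 1 RPKM and 13 were listed below it. Over the parent, 10 of the 21 were at least 2-fold higher in subclone 1, against 4.9% of all 11370 genes that passed the same filter, and 0 were at least 2-fold lower, against 1.82%. In subclone 2, 11 were at least 2-fold higher over the parent, against 5.33% of all genes, and 0 were lower, against 2.16%. In each comparison 5 of the higher genes (F2, SERPINF2, C3, CFB and C8G) were below 1 RPKM in the parent and so passed the filter through the subclones, which means that these counts describe the genes and do not support a difference of the group. The median log2 ratio of the 34 listed genes was 0.76 in subclone 1 and 0.86 in subclone 2, beside 0.00 and 0.02 over all 16149 listed genes. With MASP1, which had 0 reads in the parent, computed against a floor of 3 reads, the first of these medians was 0.71. With a pseudocount of 1 in place of 0.1, the median in subclone 2 was 0.35 and its count of higher genes was 7 of 21, against 3.34% of all genes. Of the 13 genes with a mean of at least 5 RPKM, 4 were at least 2-fold higher in subclone 1 and 5 in subclone 2, against 2.84% and 3.08% of all 8211 such genes. This count has the same limit. C3 and PROS1 in subclone 1, and C3, F5 and C5 in subclone 2, were counted though below 5 RPKM in the parent. Between the subclones, 0 of the 21 were at least 2-fold higher in subclone 2 (1.42% of all genes) and 0 were lower (1.39%), with a median over the 34 listed genes of -0.02. Both comparisons with the parent share the parent's single library, so their similarity is not separate evidence. The genes were grouped further by whether the counting interval of the fold lay above or below 1, which is a finer reading than 2-fold.

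**Figure D1:**
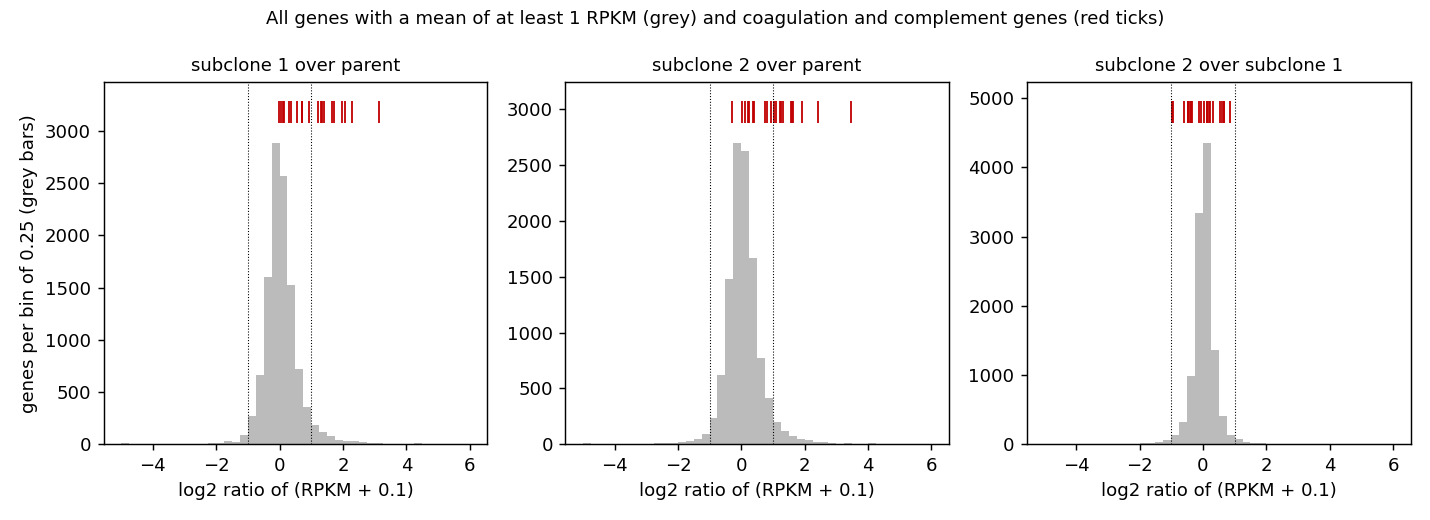
Histograms of the log2 ratio of RPKM plus 0.1 for the 11370 genes with a mean of at least 1 RPKM (grey bars, genes per bin) and the ratios of the 21 coagulation and complement genes among them (red ticks) in 3 comparisons, with dotted lines at 2-fold. In both comparisons with the parent most red ticks lie right of the bulk of the genes, up to 3.13 and 3.46, and between the subclones they all lie inside the dotted lines.

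Promoter sequence was read from RefSeq (GRCh38.p14) for 36 of the 45 genes, as the 250 bases before the annotated start, and searched on both strands for short motifs of liver and inflammation factors. The STAT motif TTCCNGGAA was found in 3 of 36 windows (PROS1, VTN and CFB), against 0.968% of 35116 windows in all. The C/EBP motif TTGCNNAA was found in 6 (C1R, C6, CPB2, KLKB1, KNG1 and VTN), against 9.05%. The HNF4 motif CAAAGTCCA was found in 1 (PROZ), against 0.325%, and the NF-kB motif GGGANTTCC in 1 (TFPI2), against 1.59%. These matches are descriptions of letters and were not tested as sites. The 3 stretches printed here hold a match and come from genes at least 2-fold higher in a subclone, with the match given in capitals (for C1R it is the reverse complement TTATGCAA), with 20 bases on each side, 5′ to 3′ on the gene's strand. They lie at chr6:31945983-31946031 on the plus strand for CFB, chr3:93973945-93973993 on the minus strand for PROS1 and chr12:7092524-7092571 on the minus strand for C1R.
CFB (STAT motif): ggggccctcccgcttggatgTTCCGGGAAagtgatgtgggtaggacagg
PROS1 (STAT motif): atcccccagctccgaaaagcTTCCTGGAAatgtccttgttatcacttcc
C1R (C/EBP motif): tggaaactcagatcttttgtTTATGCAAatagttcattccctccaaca
HNF4A, whose protein binds the HNF4 motif, was at 11.7, 11.9 and 16.0 RPKM (parent, subclone 1, subclone 2, as in all sets of 3 values below).

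The trigger of coagulation was present in all 3 strains. F3, tissue factor, was at 12.9 RPKM in the parent (139 reads), 21.1 in subclone 1 (233 reads) and 15.0 in subclone 2 (170 reads). Subclone 1 stood above both others, 1.63-fold over the parent (1.32 to 2.03), with subclone 2 at 0.712 times subclone 1 (0.581 to 0.871), while the fold of subclone 2 over the parent had an interval that included 1 (0.923 to 1.46). TFPI, the Kunitz inhibitor of tissue factor and factor Xa, was one of the most abundant members, at 67.1, 71.8 and 68.1 RPKM, and its folds over the parent were 1.07 (0.988 to 1.16) and 1.02. TFPI2, a related Kunitz inhibitor that acts mainly on plasmin, was at 4.81, 5.95 and 3.87 RPKM from 26, 33 and 22 reads, with all intervals including 1. F7, the protease that tissue factor binds, had 2, 0 and 7 reads. F3, TFPI and TFPI2 passed the filter, and none of them was at least 2-fold higher in a subclone.

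Of the contact and intrinsic pathway, none of 7 genes passed the filter. F12, F11, F9 and KLKB1, the proteases of this arm, were not listed, and a count of 0 allows up to 3 reads in a library. KNG1, the kininogen that carries prekallikrein, had 2, 2 and 5 reads, and VWF, the carrier of factor VIII, had 2, 1 and 1. F8, the cofactor missing in hemophilia A, was the exception within the arm. It was at 0.295 RPKM in the parent (12 reads), 1.25 in subclone 1 (52 reads) and 0.327 in subclone 2 (14 reads). Subclone 1 stood apart, 4.22-fold over the parent (2.22 to 8.69), and subclone 2 was at 0.263 times subclone 1 (0.134 to 0.481). F8 was below the mean of 1 RPKM and so is not among the counted genes.

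In the common pathway, F5 and F2 were higher in both subclones. F5, the cofactor of factor Xa, was at 4.34 RPKM in the parent (179 reads), 7.16 in subclone 1 (303 reads) and 13 in subclone 2 (564 reads). The 3 libraries were in steps, with subclone 1 at 1.65-fold (1.37 to 1.99) and subclone 2 at 2.99-fold (2.53 to 3.56) over the parent, and subclone 2 at 1.82 times subclone 1 (1.58 to 2.09), the highest ratio between the subclones among the 21 genes. F2, prothrombin, was low throughout, at 0.773 RPKM (7 reads), 3.33 (31 reads) and 2.62 (25 reads). Its folds over the parent were 4.31 (1.86 to 11.6) and 3.39 (1.43 to 9.29), wide because the parent had only 7 reads. F10, the protease that cuts prothrombin, had 1, 7 and 5 reads, and F13B, the carrier subunit of the fibrin crosslinking enzyme, was not listed. F10 is the neighbor of F7 on chromosome 13.

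The anticoagulant genes divided between measured and nearly silent ones. PROS1, protein S, the cofactor of activated protein C, was at 3.53 RPKM in the parent (57 reads), 11.8 in subclone 1 (195 reads) and 6.0 in subclone 2 (102 reads). It was highest in subclone 1, 3.33-fold over the parent (2.47 to 4.56), and intermediate in subclone 2, 1.70-fold over the parent (1.22 to 2.39) and 0.510 times subclone 1 (0.398 to 0.652). THBD, thrombomodulin, which turns thrombin toward protein C, was at 1.49, 4.13 and 2.93 RPKM from 27, 77 and 56 reads. The fold of THBD was 2.78 (1.77 to 4.48) in subclone 1 and 1.97 (1.22 to 3.24) in subclone 2, just under the 2-fold mark, and the subclones' interval included 1. Protein C itself (PROC) had 3, 6 and 5 reads, and SERPIND1, heparin cofactor II, had 6, 2 and 1. PROZ and SERPINC1, antithrombin, were not listed.

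Of the fibrinolysis genes, only SERPINF2 passed the filter. SERPINF2, alpha-2-antiplasmin, was at 0.388 RPKM in the parent (4 reads), 1.13 in subclone 1 (12 reads) and 1.75 in subclone 2 (19 reads). Its fold was 4.51 in subclone 2 (1.5 to 18.2), and the 2.92-fold of subclone 1 had an interval that included 1 (0.885 to 12.4). VTN, vitronectin, an adhesive plasma protein, had 3, 11 and 1 reads, so that subclone 2 was at 0.0887 times subclone 1 (0.00206 to 0.61). CPB2, which trims fibrin to slow its breakdown, had 1 read in each library, and PLG and A2M were not listed.

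**Figure D2:**
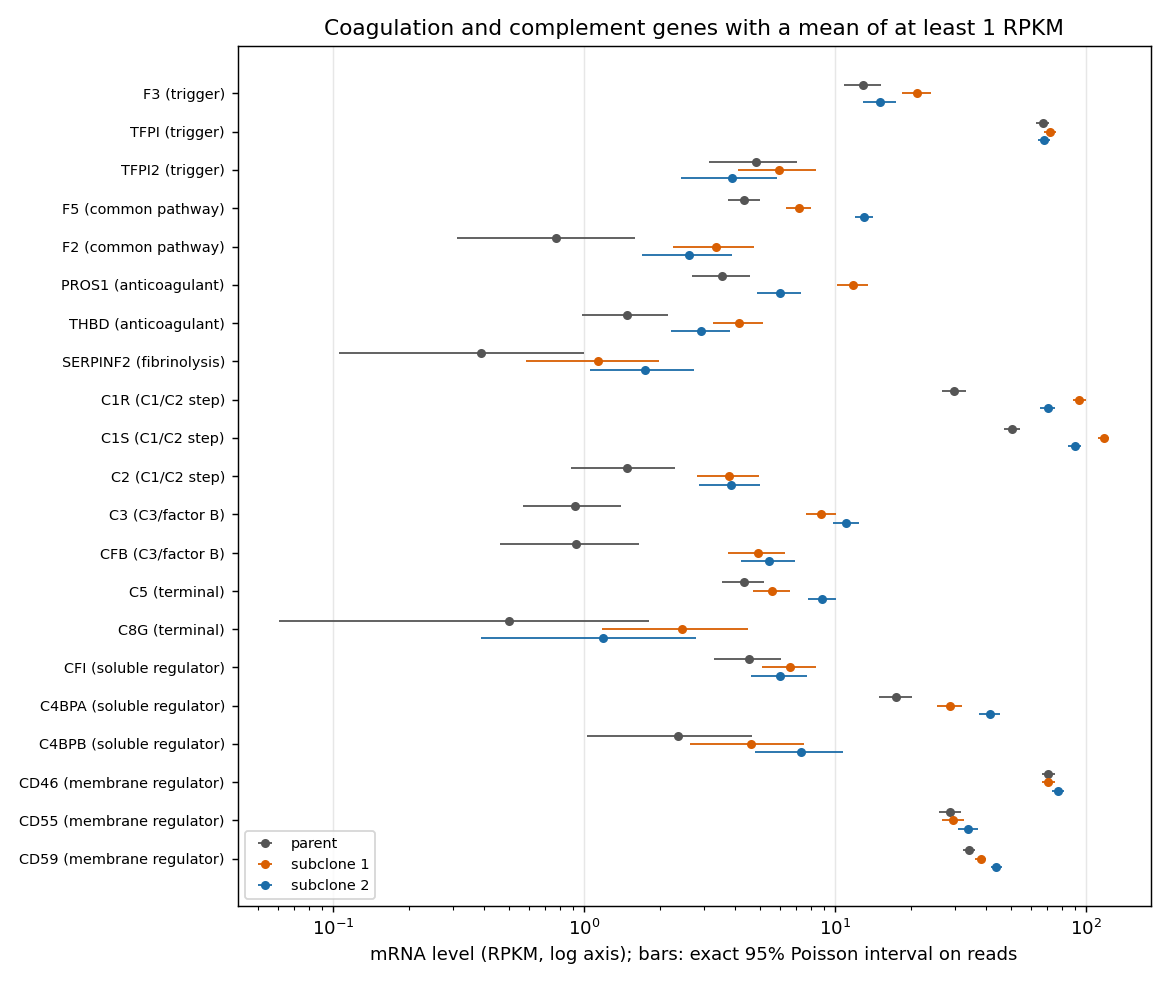
Level in RPKM (log axis) of the 21 coagulation and complement genes with a mean of at least 1 RPKM, in the order of their roles, with 1 point per library (parent grey, subclone 1 orange, subclone 2 blue) and the exact 95% Poisson interval of its reads as a bar. TFPI, CD46, CD55 and CD59 have nearly coincident points, C3 and CFB lie well apart from the parent in both subclones, and F3, PROS1, C1R and C1S reach their highest point in subclone 1.

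The genes of the first complement steps were higher in both subclones. C1R, the protease that activates C1s, was at 29.7 RPKM in the parent (337 reads), 93.8 in subclone 1 (1092 reads) and 70.1 in subclone 2 (837 reads). C1S, the protease that cuts C4 and C2, was at 50.7, 117 and 89.9 RPKM from 648, 1540 and 1211 reads. Both followed the order subclone 1, subclone 2, parent, with no overlap of the counting intervals of the levels. The folds over the parent were 3.16 (2.79 to 3.58) and 2.36 (2.08 to 2.69) for C1R, and 2.31 (2.11 to 2.54) and 1.78 (1.61 to 1.96) for C1S. Subclone 2 was at 0.748 times subclone 1 for C1R (0.683 to 0.819) and at 0.767 times for C1S (0.711 to 0.828). C2, which is cut by C1s and supplies the protease of the classical C3 convertase, was at 1.48, 3.78 and 3.84 RPKM from 19, 50 and 52 reads. It was 2.56-fold (1.48 to 4.6) and 2.6-fold (1.51 to 4.66) over the parent and at the same level in both subclones within counting error, with a ratio of 1.01 (0.675 to 1.53). MASP1, a protease of the lectin route, had 0, 5 and 7 reads. The lower limit of the counting interval of its fold was 0.892 in subclone 1 and 1.37 in subclone 2. MASP2 had 2 reads in each library, and SERPING1, the C1 inhibitor, had 1, 4 and 1.

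C3, the central component that all routes cut, had the highest fold of the 21 genes in both subclones. C3 was at 0.917 RPKM in the parent (21 reads), 8.80 in subclone 1 (207 reads) and 11.1 in subclone 2 (267 reads). It was 9.6-fold (6.12 to 15.8) and 12.1-fold (7.74 to 19.8) over the parent, which ranked it 40 and 44 from the highest log2 ratio among the 11370 genes. Subclone 2 was 1.26 times subclone 1 (1.05 to 1.52). CFB, factor B, which forms the alternative C3 convertase with C3b, was at 0.926, 4.92 and 5.44 RPKM from 11, 60 and 68 reads. CFB was second to C3, at 5.31-fold (2.77 to 11.2) and 5.87-fold (3.08 to 12.3), ranked 103 and 99, and its ratio between the subclones had an interval that included 1 (0.77 to 1.59).

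**Figure D3:**
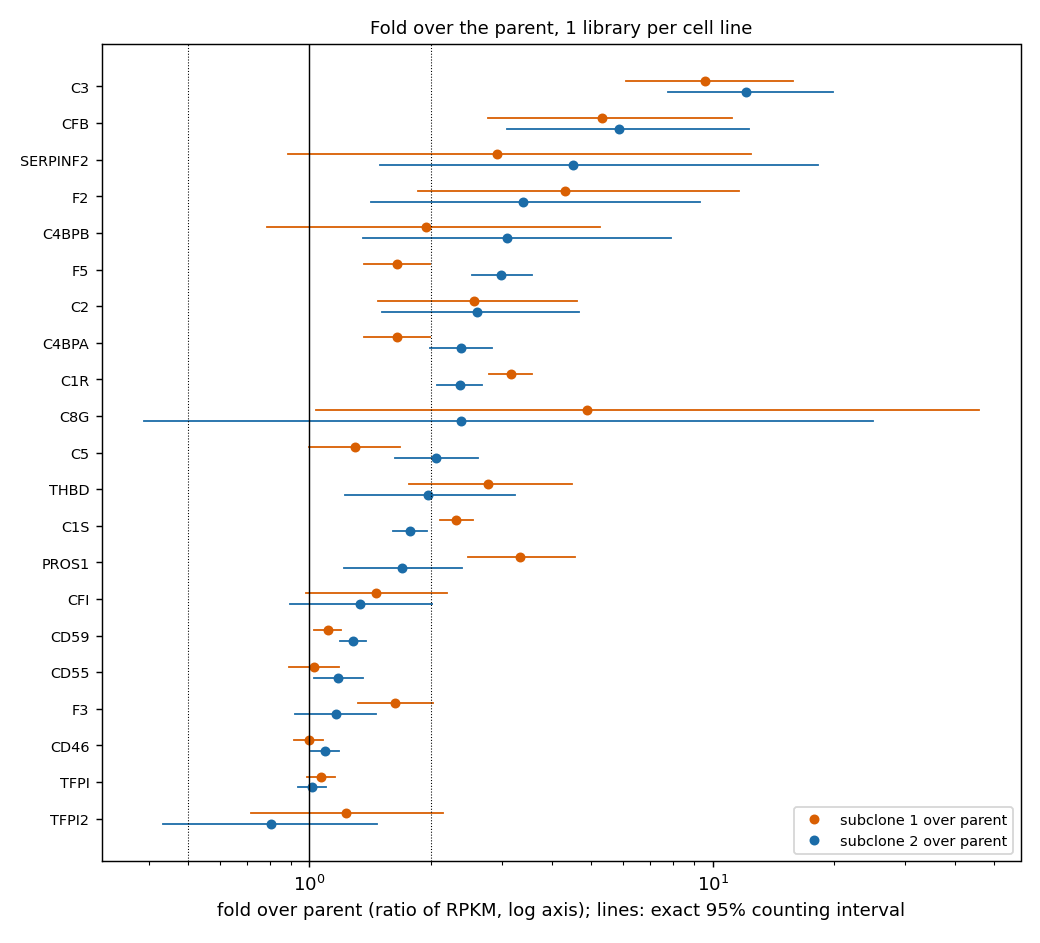
Fold over the parent (ratio of RPKM, log axis) of the same 21 genes in subclone 1 (orange) and subclone 2 (blue), sorted by subclone 2, with exact 95% counting intervals as lines, a solid line at 1 and dotted lines at 2-fold in either direction. C3 is highest at 9.6-fold and 12.1-fold, no gene lies left of the lower dotted line, and the intervals of C8G and SERPINF2 are the widest.

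The terminal pathway was measured through 2 of its 5 genes. C5, the precursor of the anaphylatoxin C5a and of the pore, was at 4.31 RPKM in the parent (106 reads), 5.58 in subclone 1 (141 reads) and 8.88 in subclone 2 (230 reads). Subclone 2 stood above the others, 2.06-fold over the parent (1.63 to 2.62) and 1.59 times subclone 1 (1.28 to 1.98). This 2-fold count is marginal, as the log2 ratio of C5 was 1.03 as deposited but 0.99 after division by the upper quartile. C8G, the lipocalin-like chain of C8, had 2, 10 and 5 reads, and its 4.87-fold in subclone 1 had an interval of 1.04 to 45.7, while its 2.37-fold in subclone 2 had an interval that included 1 (0.389 to 24.9). C6 had 1, 2 and 4 reads, and C8A and C8B, the other chains of C8, were not listed.

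Among the soluble regulators, both chains of C4b-binding protein were highest in subclone 2. C4BPA, its alpha chain, was at 17.4 RPKM in the parent (176 reads), 28.7 in subclone 1 (298 reads) and 41.3 in subclone 2 (440 reads). The 3 libraries were in steps, at 1.65-fold (1.36 to 2.0) and 2.37-fold (1.99 to 2.84) over the parent and 1.44 times between the subclones (1.24 to 1.67). C4BPB, the beta chain that binds protein S, was at 2.36, 4.60 and 7.30 RPKM, with folds of 1.95 (0.786 to 5.26) and 3.09 (1.36 to 7.89). Its ratio between the subclones was 1.59, with an interval that included 1 (0.819 to 3.16). Its 8, 16 and 26 reads share a divisor and may be understated, in which case its intervals are too wide. CFI, factor I, which cuts C3b and C4b, was at 4.52, 6.59 and 6.04 RPKM, and the interval of its 1.46-fold in subclone 1 included 1 (0.983 to 2.19).

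The membrane regulators were abundant and differed little. CD46, a cofactor of factor I, was at 70.7, 70.5 and 77.4 RPKM, with subclone 2 at 1.09-fold over the parent (1.01 to 1.19). CD55, which dissociates C3 convertases, was at 28.7, 29.5 and 33.9 RPKM, with subclone 2 at 1.18-fold (1.03 to 1.36). CD59, which blocks the assembly of the pore, was at 34.2, 38.0 and 43.9 RPKM, with folds of 1.11 (1.03 to 1.2) and 1.28 (1.19 to 1.38). None of these 3 genes came near 2-fold, and all 3 were highest in subclone 2. The direction of CD46, CD55 and TFPI in subclone 1 over the parent depended on scaling, since division by ACTB brought the log2 ratio of CD55 there from 0.04 to -0.09 and that of TFPI from 0.10 to -0.03.

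Read by counting intervals, the 21 genes fell into several patterns. Over the parent, the interval lay above 1 for 13 genes in subclone 1 and 16 in subclone 2, against 20.4% and 23.2% of the 11128 genes with whole reads that passed the filter. It lay below 1 for 0 genes in either subclone, against 19.3% and 18.2%. Between the subclones it lay above 1 for 7 genes (11.9% of all) and below 1 for 4 (8.66%). Higher in both subclones than in the parent were 11 genes, against 15.3%. The counts over the parent include genes that passed the filter through the subclones. These are F2, C3 and CFB in both subclones, C8G in subclone 1 and SERPINF2 in subclone 2. The counts therefore describe the genes and do not support a difference of the group. Of these 11, F5, C3, C4BPA and CD59 were also higher in subclone 2 than in subclone 1, PROS1, C1R and C1S were lower in subclone 2 than in subclone 1, and F2, THBD, C2 and CFB showed no difference between the subclones beyond counting error. Higher than the parent only by the interval of subclone 1 were F3 and C8G, and only by that of subclone 2 were C5, CD46, CD55, SERPINF2 and C4BPB. CD46 in subclone 2 is marginal, with a lower limit of 1.008 over the parent and 1.01 over subclone 1. CD55 had a lower limit of 1.003 over subclone 1. Division by the upper quartile shifted the median log2 ratio of all genes by -0.04 and -0.05 in these 2 comparisons, and the intervals were not recomputed. TFPI, TFPI2 and CFI had intervals that included 1 in all 3 comparisons.

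Several of the genes lie side by side in the RefSeq gene order, and the neighbors can be compared on the same footing. C1S and C1R are adjacent on chromosome 12, and both had the order subclone 1, subclone 2, parent. C4BPB and C4BPA are adjacent on chromosome 1 and are followed by CD55, which was at 1.18-fold in subclone 2 where C4BPA was at 2.37-fold, and CD46 lies 3 coding genes further and was at 1.09-fold. C2 and CFB lie on chromosome 6 with 1 coding gene starting between them, and neither differed between the subclones beyond counting error. Where neighboring or overlapping genes share reads, the counting used for the deposited values is not given in the sources used here.

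**Figure D4:**
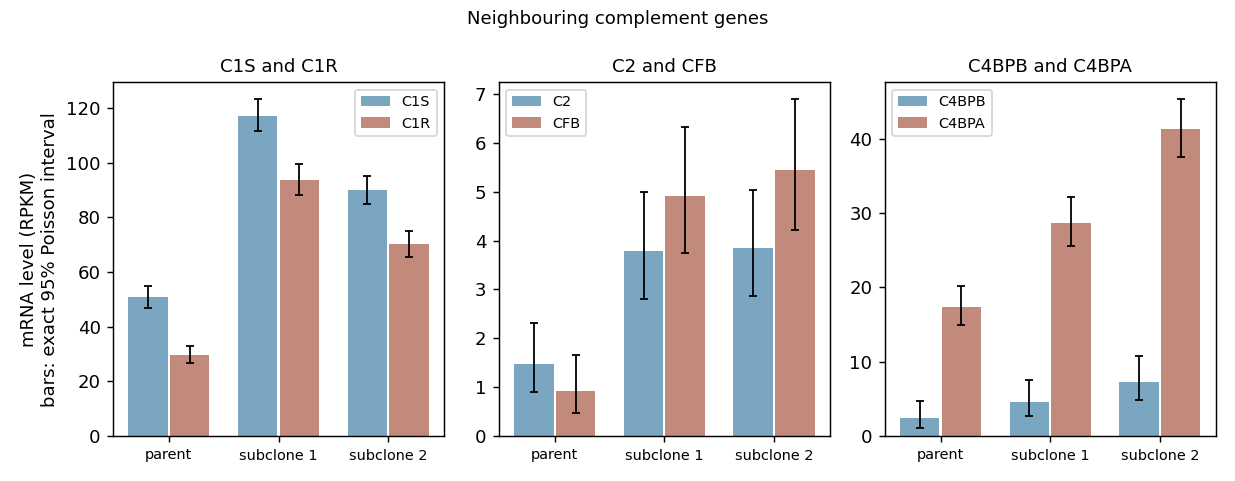
Level in RPKM of 3 pairs of neighboring complement genes in each library (bars from 0, with exact 95% Poisson intervals). C1S and C1R peak in subclone 1, C2 and CFB are alike in both subclones, and C4BPB and C4BPA step up to subclone 2, where C4BPA reaches 41.3 RPKM. The intervals of C4BPB overlap between the subclones.

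Of 55 other genes of both cascades, 27 passed the filter, and in each subclone 5 of them exceeded the parent by 2-fold or more while 2 fell short of it by as much, beside the shares of all genes given above (4.9% and 1.82% in subclone 1, 5.33% and 2.16% in subclone 2). The fibrinogen genes, which encode the clot protein, were among the higher ones. FGG in both subclones, and SERPINA5 and CFD in subclone 1, were counted as higher though below 1 RPKM in the parent. They passed the filter through the subclones, so these counts too describe the genes and do not support a difference of the group. FGA was at 1.16, 6.53 and 4.63 RPKM, FGB at 1.66, 14.5 and 5.60, and FGG at 0.126, 4.80 and 3.60. SERPINA5, the protein C inhibitor, was at 0.578, 3.85 and 0.915 RPKM and so at least 2-fold higher in subclone 1, with a log2 ratio of 2.54, against 0.58 in subclone 2. CFD, factor D, which cuts factor B, was at 0.76, 2.40 and 1.08 RPKM. CFD passed 2-fold in subclone 1 only, with a counting interval that included 1, and CFHR3 passed it in subclone 2 only (the log2 ratio of CFHR3 in subclone 1, with 0.1 RPKM added, was 0.98). CFHR3, a plasma protein of the complement system whose reads may be shared with its near copies, was at 1.07, 2.21 and 2.67 RPKM. The 2 lower genes in both subclones were PLAT, the tissue plasminogen activator, at 8.64, 2.53 and 3.13 RPKM, and F2RL2, a thrombin receptor, at 18.1, 8.61 and 6.73. Among the genes of highest mean level were ANXA5, an anticoagulant annexin, at 412, 435 and 484 RPKM, and SERPINE2, a thrombin inhibitor, at 393, 342 and 208. Between the subclones, 1 of the 27 was at least 2-fold higher in subclone 2, MBL2, the mannose-binding lectin, at 1.06, 0.547 and 1.84 RPKM, which was named after its values were seen. FGB, SERPINA5 and CFD were the 3 lower in subclone 2.

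**Figure D5:**
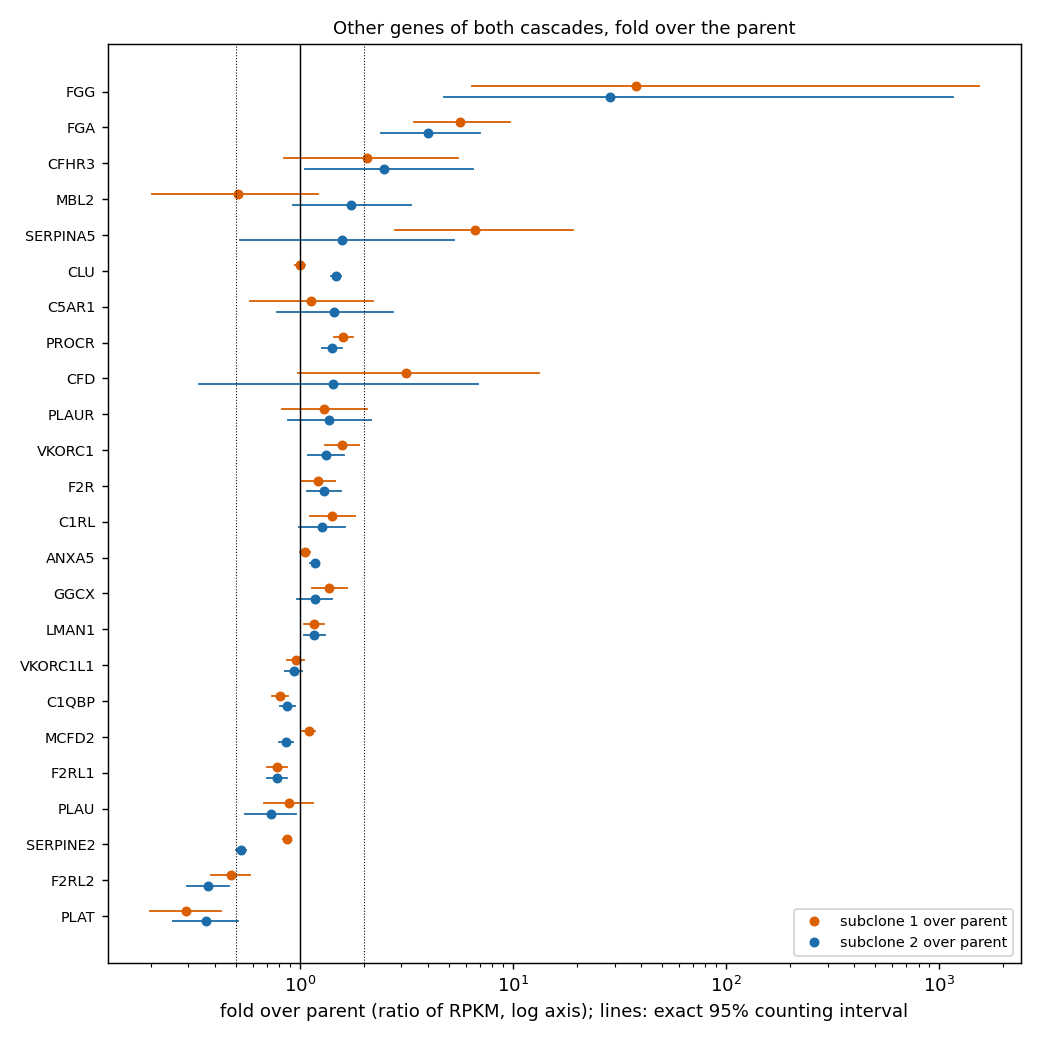
Fold over the parent (ratio of RPKM, log axis) of 24 other genes of both cascades with whole reads, in subclone 1 (orange) and subclone 2 (blue), with exact 95% counting intervals as lines, a solid line at 1 and dotted lines at 2-fold. FGG lies farthest right and PLAT farthest left, and FGB, which had no whole reads, is not drawn.

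Markers of hepatocytes and of other cells were read beside these genes. All 12 hepatocyte markers were listed, and they summed to 45.1, 119 and 122 RPKM. Of the 12, 9 were above the parent and 2 below in subclone 1, and 8 above and 3 below in subclone 2. These counts take a difference of any size, where the median log2 ratio of all 16149 genes was 0.00 and 0.02. They include APOA1, APOC3, SERPINA1 and TTR, which had 4 reads or fewer in each library. Most of the rise of the sum was in ALB. Albumin (ALB) was at 2.46, 49.5 and 68.8 RPKM and the transferrin gene TF at 5.71, 30.3 and 5.88, while RBP4 was lower in both subclones, at 6.87, 1.15 and 3.60, AHSG was at 1.26, 0.953 and 0.929, and TTR was at 0, 0 and 0.45. Endothelial markers, of which 7 of 10 were listed, summed to 39.3, 51.3 and 37.5 RPKM, with the defining CDH5 at 0, 0.05 and 0, and TIE1, CLDN5 and ROBO4 not listed. Most of this sum was ESAM, at 34.2, 39.2 and 29.8. PECAM1 was at 3.33, 9.81 and 4.46 and KDR at 1.36, 1.93 and 3.08, whereas TEK was lower in both subclones, at 0.37, 0.0901 and 0.0439. Macrophage and blood markers, of which 6 of 8 were listed, summed to 77.1, 116 and 102 RPKM, mostly CD68. PTPRC was at 0.08, 0 and 0, and CSF1R was not listed. ITGAM was higher in both subclones, from 11, 24 and 27 reads, with lower limits of the fold over the parent of 1.002 and 1.12. CD14 had 1, 8 and 0 reads, with a lower limit of 1.04 in subclone 1. LYZ had 7, 7 and 10 reads and CD163 had 0, 2 and 0, with no interval over the parent above 1. Fibroblast markers, of which 6 of 7 were listed, summed to 15.7, 31.2 and 24.3 RPKM, with PDGFRB not listed. LUM at 10.1, 24 and 21 and DCN at 0.773, 4.42 and 2.75 were higher in both subclones, whereas COL3A1 was lower, at 4.42, 2.21 and 0.463, and COL1A1 was at 0.338, 0.403 and 0.0357. Platelet markers, of which 3 of 5 were listed, summed to 0.958, 1.43 and 1.04, with PPBP and GP9 not listed. The part of these markers in the levels of the coagulation and complement genes was not tested.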

How the data were processed

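The coagulation and complement genes, their role groups and the other lists were chosen with earlier results of these data known. The deposited values are RPKM, which the authors made from mRNA reads of a TruSeq library per strain, against hg19 per the submitters' processing notes. The aligner, counter, annotation and handling of strand and shared reads are not given in the sources used here. Genes were taken by symbol, and those a library did not list were taken as 0.

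Whole reads were recovered because a gene's RPKM in 3 libraries are whole multiples of 1 step. Genes whose reads were equal between parent and subclone (522 and 503) gave the ratios of the totals, and the step shared by low genes gave the totals (67.4% of 2073 such genes lay on it). Of 11370 genes with a mean of at least 1 RPKM, 97.9% had whole reads, and genes with reads held 97.5%, 97.5% and 97.6% of the totals. Implied lengths were within 10% of a GENCODE transcript for 87.6% of genes, against 7.74% with halved and 33.3% with doubled totals. This comparison does not check the totals. Lengths had been accepted by their closeness to GENCODE transcripts, and other totals only rescaled those lengths. The rule for accepting a length was revised after values were seen. FGB had no whole reads. On simulated data the totals were recovered exactly. The simulated lengths came from the same GENCODE transcripts used to accept lengths, whereas the annotation behind the deposited values is not known.

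Each strain had 1 library, so no test was run. Log2 ratios used a pseudocount of 0.1, so low genes show less change on this scale. Genes with a mean of at least 1 RPKM were given by library and the rest by reads. Of the other cascade genes, those at least 2-fold changed in either subclone over the parent and the 3 of highest mean were named, except for some results that are not reported here. Promoters and gene order came from RefSeq (GRCh38.p14), without conversion from hg19. Of the 45 genes, 9 had no promoter window (VWF, THBD, SERPINC1, SERPINF2, A2M, C1S, SERPING1, C3 and C8G). Where a gene had several windows, the one nearest the RefSeq gene span was used, and 35 of the 36 windows used adjoined it. The 35116 windows set beside them kept all windows of such genes. Alternatives were other pseudocounts, scalings, filters and fold thresholds. Python 3.11.15, numpy 2.4.6, pandas 2.3.3, scipy 1.17.1 and matplotlib 3.10.9 were used.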

Additional observations from a re-analysis of the deposited data

How the results depend on the processing

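Of 612 log2 ratios of single genes recomputed under alternatives, 599 stayed within their counting interval and 13 moved further. The 612 cover all 34 listed genes, also those below the filter, many of whose intervals are wide. For CPB2 in subclone 1 over the parent the interval was 0.0124 to 76.4. The count of 599 therefore says little about how stable single ratios are. Among those that moved further was C3. Its log2 ratio over the parent, 3.13 and 3.46 as reported, was 2.35 and 2.66 at the lowest. The median over the listed genes ranged from 0.54 to 0.90 in subclone 1 over the parent, from 0.35 to 0.90 in subclone 2 and from -0.05 to 0.05 between the subclones, and over the 21 genes that passed the filter it was 0.93, 1.03 and 0.02. The count of genes at least 2-fold higher in subclone 2 over the parent, 11 as reported, was 7 with a pseudocount of 1 (3.34% of all genes). With a mean of at least 5 RPKM it was 5 (3.08%), and the count of 10 in subclone 1 was 4 (2.84%). The filter at 5 RPKM leaves fewer genes, and some of them passed it through the subclones. Without the filter, 15 genes in either subclone were above the parent by 2-fold or more (9.43% and 9.62% of all 16149 genes), 2 in subclone 1 and 2 in subclone 2 were below it by as much (5.47% and 5.83%), and between the subclones 1 was higher and 3 were lower in subclone 2 (5.21% and 5.59%). The count lower in subclone 2 than in subclone 1, 0 of 21 as reported, was 1 with a pseudocount of 0.01 (1.57% of all genes). It was 2 after division by the upper quartile (1.59%) and 1 after centring on the median (1.57%). At 1.5-fold it was 3 (4.11% of all genes), where 4 were higher (4.75%). Division by ACTB shifted the median of all genes by -0.13 in subclone 1 over the parent and by 0.12 between the subclones, and moved the genes at least 2-fold higher and lower in subclone 1 over the parent from 557 and 207 to 449 and 328, and those in subclone 2 over subclone 1 from 161 and 158 to 216 and 122. It turned the log2 ratio of TFPI in subclone 1 over the parent from 0.10 to -0.03, and that between the subclones from -0.08 to 0.05. No paired analysis was possible because each strain has 1 library, nor could a library be left out. Depth limits F2, C8G, SERPINF2 and C4BPB most, with 8 reads or fewer in the parent.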
